A study of Homo sapiens with 89 samples.

Results

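Neuroblastoma is a childhood tumour of the sympathetic nervous system, and its cell lines fall into a pair of transcriptional states. Adrenergic cells resemble the sympathoblasts from which the tumour arises: they keep transcription factors such as HAND2 and GATA3 and make secretory granules, neurites and synaptic proteins. Mesenchymal cells resemble neural crest or stromal cells: they keep factors such as PRRX1 and SNAI2, lay down collagens, and assemble contractile actin and caveolae. IMR-32 is an adrenergic line with an amplified MYCN gene, and SHEP is a mesenchymal line without that amplification. The comparison of these lines without any inducer used 6 poly(A) RNA-seq libraries, all 3 of each line that carry this label, out of the 89 samples of a series on MYCN and the RNA exosome.

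The IMR-32 libraries came from cells with a doxycycline-inducible short hairpin RNA that had not been induced (other libraries of their table had one against EXOSC10 induced), with ethanol named in the columns of the table. The SHEP libraries came from cells with a doxycycline-inducible MYCN transgene (wild type or the RNA-binding mutant 3A, the labels of the uninduced samples do not say which) that had received no doxycycline. Both lines carried a construct, were grown in RPMI-1640 with bovine serum, and were sampled without the inducer. Each line is a culture derived from 1 tumour, and the labels do not say whether the 3 samples of a line were separate cultures, so p-values measure only the spread between these samples. The lines were deposited as separate tables whose columns carry different prefixes, so line and table cannot be told apart. For that reason only large differences were read, meaning an adjusted p under 0.05 together with at least a 4-fold difference (2 on the log2 scale, IMR-32 over SHEP).

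Levels are given as CPM, the counts scaled to a common library total with TMM factors, and 3 counts in a library correspond to 0.141 CPM in IMR-32 and 0.222 CPM in SHEP. Below, a pair of values joined by "against" is the mean ± SD of the 3 IMR-32 libraries and that of the 3 SHEP libraries, and a difference given without its p passed the test. Libraries held 20594270 to 21088114 counts in IMR-32 and 12931268 to 15353505 in SHEP. Correlations of log2 CPM across genes were 0.9872 to 0.991 within a line and 0.534 to 0.547 between lines. Of 57905 genes, 17657 were tested, and 87.9% of those were called at an adjusted p under 0.05 (edgeR's quasi-likelihood F test, p adjusted after Benjamini and Hochberg), 46.5% as higher in IMR-32 and 41.4% as higher in SHEP. Large differences were found for 4381 genes higher in IMR-32 (24.8% of those tested) and 2890 higher in SHEP (16.4%), 41.2% in all, and 3335 and 1931 genes had passed the filter on low counts only through IMR-32 or only through SHEP. Over all 57905 genes, large differences made up 7.57% and 4.99%. Counts for the gene lists below are to be read beside both pairs of shares. The 3 libraries of a line did not overlap with those of the other line for 88.6% of tested genes (46.8% with IMR-32 above, 41.7% with SHEP above). Of the large differences, 4267 of the 4381 and 2785 of the 2890 also kept every IMR-32 library apart from every SHEP library over all 15 RNA-seq libraries of the series, which add EXOSC10-depleted IMR-32 and MYCN-expressing SHEP. These genes were chosen as large in libraries that are among the 15, so this count is not an independent check. The share over all tested genes in the 15 libraries is not given here. Among 8340 genes at 10 CPM or more in both lines, 55.0% were within 2-fold. The difference also followed gene length: the median was -1.19 (log2) for genes with 1000 to 2000 exon bases and 0.522 for genes above 8000, and the part of library preparation in this was not tested. Mitochondrial genes took 6.70 to 7.49% of the counts in IMR-32 and 1.93 to 2.7% in SHEP.

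**Figure D1:**
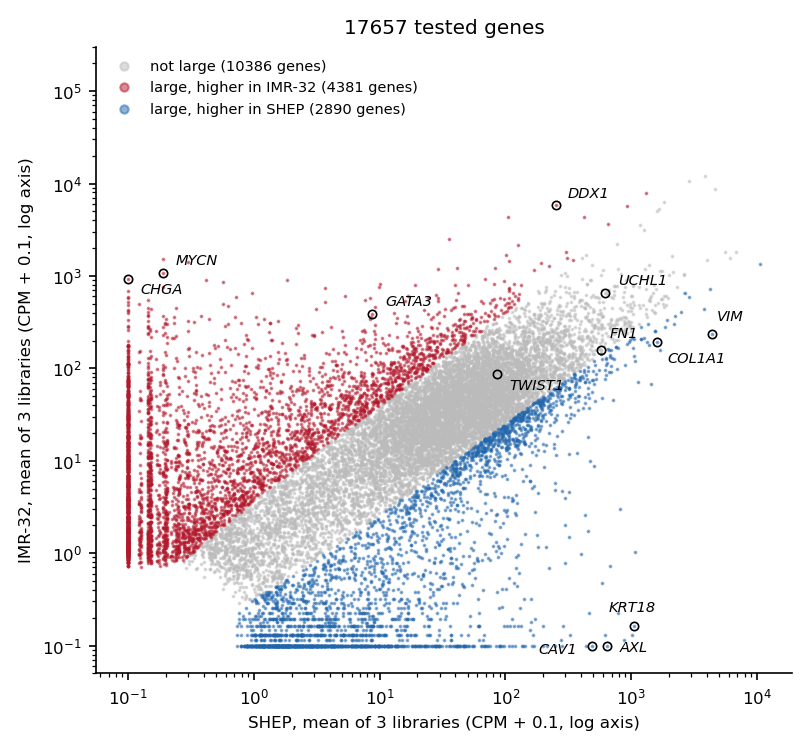
Mean level of each tested gene in SHEP (x axis) and IMR-32 (y axis), in CPM + 0.1 on log axes. Red and blue points are the 4381 and 2890 genes with a large difference, and a column of red points on the left and a row of blue points at the bottom are genes with no or almost no counts in the other line.

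The 6 identity genes followed the labels. MYCN, the amplified proto-oncogene, stood at 1056, 1054 and 1079 CPM in IMR-32 and 0.267, 0 and 0 CPM in SHEP. CHGA, the core protein of chromaffin granules, stood at 988, 907 and 877 CPM in IMR-32 and 0 CPM in all 3 SHEP libraries, at least 4165-fold higher in IMR-32. GATA3, a zinc-finger factor of sympathetic neurons, stood at 388, 382 and 383 CPM in IMR-32 and 9.14, 8.51 and 8.39 CPM in SHEP (log2 difference 5.46, SE 0.08, adjusted p = 2.5e-33). In all of these each IMR-32 library was above each SHEP library. CAV1, the structural protein of caveolae, had no count in IMR-32 and 505, 529 and 443 CPM in SHEP, at least 3498-fold lower in IMR-32. COL1A1, a chain of collagen I, was present in both lines, at 207, 183 and 188 CPM in IMR-32 and 1574, 1701 and 1575 CPM in SHEP (log2 difference -3.07, SE 0.06, adjusted p = 3.6e-30). FN1, which encodes fibronectin, was the marker with the smallest difference, at 161, 143 and 169 CPM in IMR-32 and 654, 574 and 510.4 CPM in SHEP (log2 difference -1.88, SE 0.08, adjusted p = 2.5e-18): the groups did not overlap, but the difference was under 4-fold. IMR-32 thus had measurable COL1A1 and FN1 RNA, and SHEP a measurable level of GATA3. In bulk RNA, fewer cells that express a gene and less RNA of it per cell cannot be told apart.

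**Figure D2:**
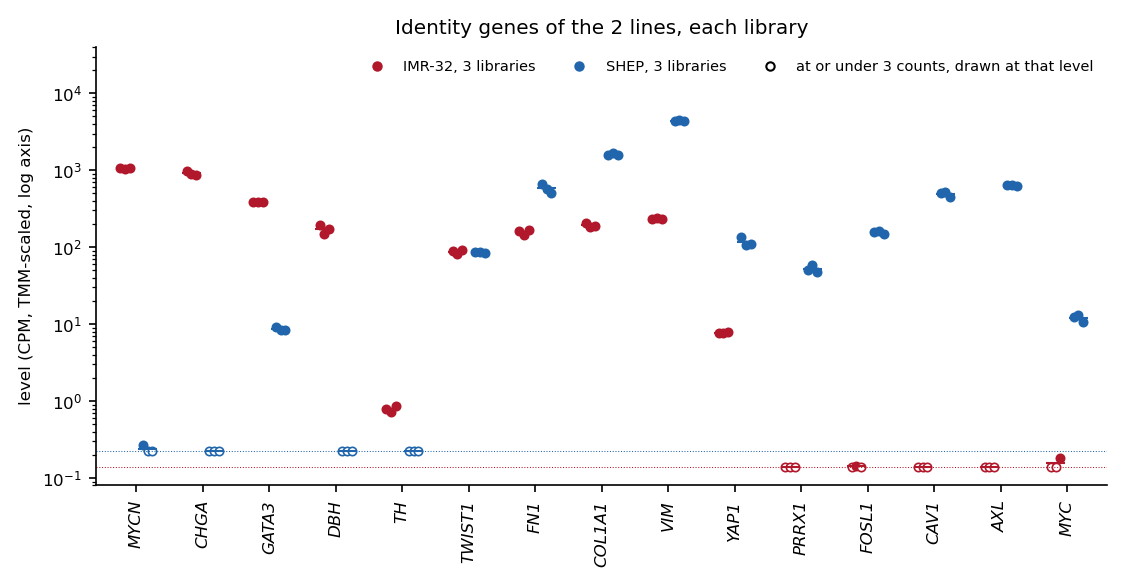
Level in each library (CPM, log axis) of 15 genes that mark the lines, IMR-32 in red and SHEP in blue, with a short bar at the mean of 3 libraries. Open points are libraries at or under 3 counts, drawn at that level: CHGA, DBH and TH are open in SHEP, PRRX1, CAV1 and AXL in IMR-32, while TWIST1 is level in both lines.

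The genes with the largest folds among those at 50 CPM or more were taken as the first 15 of each line. On the IMR-32 side they included KIF1A, MYCN, CHGA, LRATD1, TP53I11, FNDC5, CHRNA3, WFIKKN2, GFRA2, NELL2, NUP210, SCG3, VANGL2 and NCAN. KIF1A, a kinesin motor that carries synaptic vesicle precursors along axons, led them with 1540.3, 1498 and 1520.4 CPM in IMR-32 and 0.267, 0 and 0 CPM in SHEP. On the SHEP side they included KRT18, THBS1, TGFBI, AXL, ANXA1, CAV1, S100A10, IFITM3, MSN, S100A11, TIMP1, S100A16, ANKRD1 and CAVIN1. KRT18, an intermediate filament keratin of simple epithelia, stood at 0, 0.0951 and 0.0921 CPM in IMR-32 and 969, 1074 and 1095 CPM in SHEP (log2 difference -13.87, SE 0.15, adjusted p = 5.8e-37). It has near-identical copies elsewhere in the genome, and how the counting divided reads among them was not tested. THBS1, the matrix glycoprotein thrombospondin 1, stood at 0, 0 and 0.0921 CPM in IMR-32 and 1132, 958 and 966 CPM in SHEP, a ratio of counts of 32772, 95% interval 9072 to 270621. MSN, the membrane-actin linker moesin, stood at 0, 0 and 0.369 CPM in IMR-32 and 488, 460.4 and 450.2 CPM in SHEP.

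Transcription factors of the adrenergic state were mostly higher in IMR-32. Of 31 factors in the tables, 29 were tested, 14 of them only through their level in IMR-32, and 24 were large in IMR-32 against 2 in SHEP (77.4% and 6.45%). Over all genes in the tables the shares were 7.57% and 4.99%, and over tested genes 24.8% and 16.4%. The median log2 difference of the 29 members with a mean of 1 CPM or more was 5.14, against 0.107 over all such genes (a gene with no count in a line at its lower bound). PHOX2A, a homeodomain factor of noradrenergic neurons, was at 385, 345 and 347 CPM in IMR-32 and 0.4, 0 and 0 CPM in SHEP (log2 difference 11.19, SE 0.19, adjusted p = 8.6e-28), with all IMR-32 libraries high and all SHEP libraries near 0. SOX11, an embryonic neural SOX factor, had 359, 370.4 and 369.8 CPM in IMR-32 and 0.133, 0 and 0 CPM in SHEP (ratio of counts 7468, 95% interval 2067 to 61668). KLF13, a Sp1-like zinc-finger factor, was at 63.8, 74.1 and 75.1 CPM in IMR-32 and 0 CPM in all 3 SHEP libraries, at least 319.8-fold higher.

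Other adrenergic factors kept an intermediate level in SHEP. HAND2 was at 571, 523 and 519 CPM in IMR-32 and 60.4, 64.6 and 66.7 CPM in SHEP (log2 difference 3.07, SE 0.07, adjusted p = 4.6e-29). TBX2, a T-box repressor, was at 442 ± 15.48 against 33.1 ± 4.91 CPM (log2 difference 3.74). ISL1, a LIM-homeodomain factor of sympathetic and motor neurons, was at 92.9 ± 3.4 against 4.5 ± 1.15 CPM (log2 difference 4.36). MEIS1, a HOX cofactor, was at 253 ± 5.1 against 7.15 ± 1.16 CPM (log2 difference 5.14). SHEP libraries were lower for each of these factors and did not overlap with IMR-32. The 2 factors that were large in the other direction were GATA2, at 0.942, 1.47 and 1.29 CPM in IMR-32 and 61.8, 49.9 and 58.4 CPM in SHEP (log2 difference -5.51, SE 0.16, adjusted p = 2.2e-25), and the Notch target HEY1, at 0.19 ± 0.19 against 4.02 ± 0.753 CPM (log2 difference -4.36). GATA2 and GATA3, a pair of related zinc-finger factors, were thus higher in opposite lines. TFAP2B and LMO1 were too low in both lines to be tested.

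**Figure D3:**
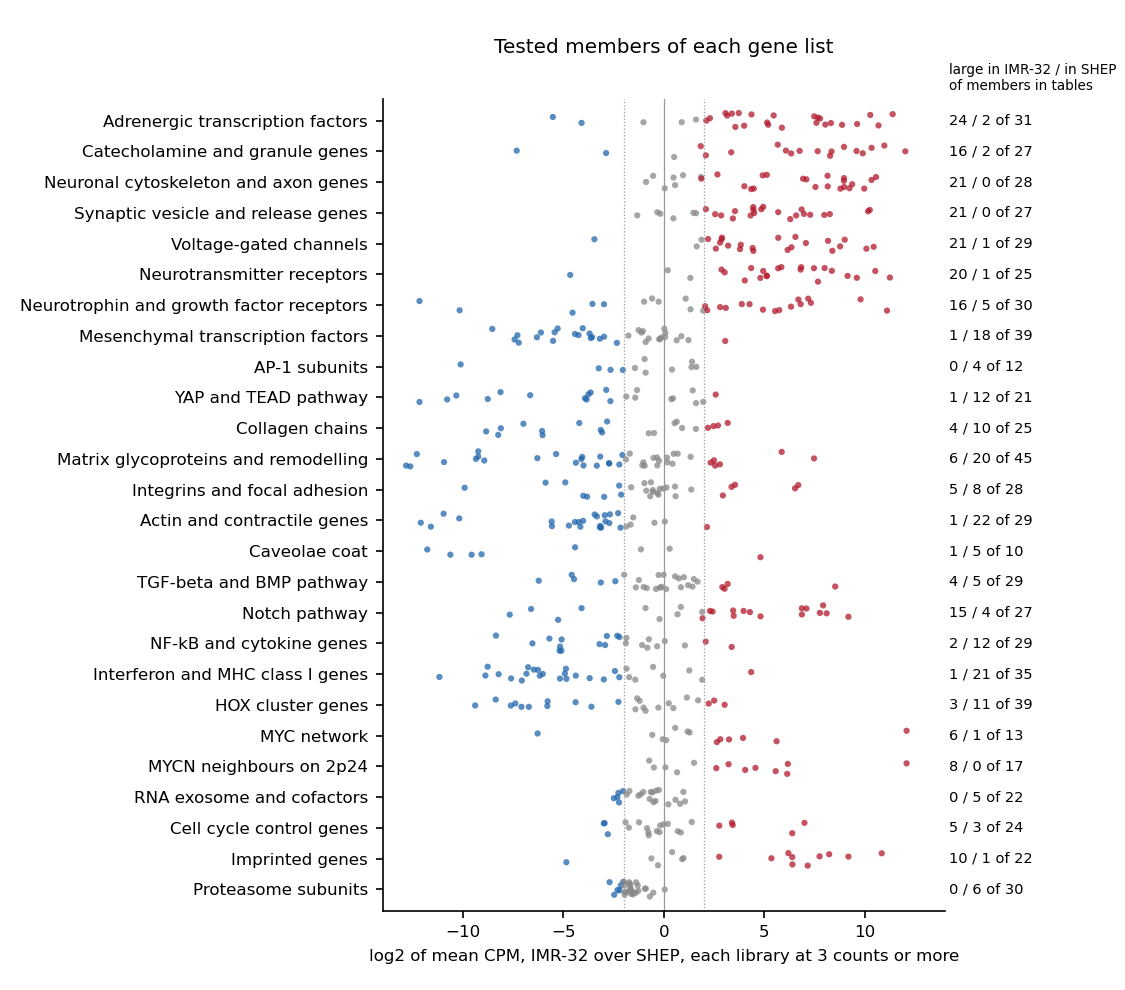
Log2 of the mean CPM in IMR-32 over that in SHEP for the tested members of 26 gene lists, with every library set to 3 counts or more, dotted lines at 4-fold. Red and blue points are members with a large difference, and the figures on the right count them out of all members in the tables, from 24 and 2 of 31 adrenergic factors to 0 and 6 of 30 proteasome subunits.

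Granule genes separated the lines, but the enzymes of catecholamine synthesis did not all appear in IMR-32. Of 27 genes in the tables, 16 were large in IMR-32 and 2 in SHEP, and 13 of the 19 tested had passed only through IMR-32 (median log2 difference 7.86 at 1 CPM or more). DBH, which converts dopamine to noradrenaline inside the granule, was at 194, 149 and 171 CPM in IMR-32 and 0 CPM in all 3 SHEP libraries, at least 774-fold higher. TH, the rate-limiting enzyme of the pathway, was at only 0.801, 0.713 and 0.875 CPM in IMR-32 against 0 in SHEP, a mean of 0.796 ± 0.0813 (SD, n = 3). DDC, the next enzyme, was at 1.55, 0.856 and 0.369 CPM in IMR-32, and PNMT and the vesicular transporters SLC18A1 and SLC18A2 were at or under 3 counts per library on average in both lines. SLC6A2, the plasma membrane noradrenaline transporter, was at 23.1, 24.6 and 24.6 CPM in IMR-32 and 0 CPM in all 3 SHEP libraries, at least 109-fold higher. IMR-32 thus had RNA for a late enzyme and for the uptake carrier, with low RNA for the first enzyme.

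Granule cargo and its processing genes were high in IMR-32. CHGB was at 341 ± 25.6 against 1.1 ± 0.728 CPM (log2 difference 8.23). VGF, a neuropeptide precursor, was at 253, 248.7 and 242 CPM in IMR-32 and 1.2, 0.788 and 1.68 CPM in SHEP (log2 difference 7.65, SE 0.13, adjusted p = 2.3e-32). SCG3 was at 462, 435 and 447 CPM in IMR-32 and 0.133, 0 and 0 CPM in SHEP (ratio of counts 9137, 95% interval 2529 to 75450.5). GAL, the precursor of galanin, was at 213 ± 16.4 against 0.123 ± 0.119 CPM (log2 difference 10.68). The granule membrane protein PTPRN was at 314, 277 and 276 CPM in IMR-32 and 0 CPM in all 3 SHEP libraries, at least 1302-fold higher. PCSK2, a convertase that cuts prohormones, was at 11.7, 11.1 and 11.2 CPM in IMR-32 and 0 CPM in all 3 SHEP libraries, at least 51.1-fold higher, while PCSK1, NPY and SST were at or under 3 counts in both lines. CYB561, a cytochrome that supplies electrons to DBH in the granule, went the other way, at 0.0942, 0.475 and 0.184 CPM in IMR-32 and 36.8, 50.5 and 40.7 CPM in SHEP (log2 difference -7.37, SE 0.25, adjusted p = 3.4e-23). SCG5 was also higher in SHEP, at 1.51, 0.856 and 0.783 CPM in IMR-32 and 7.94, 8.12 and 6.94 CPM in SHEP (log2 difference -2.86, SE 0.30, adjusted p = 1.3e-10, and -1.94 on the log2 scale with a length offset, no longer 4-fold).

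Promoters of granule genes are known for the cyclic AMP response element, so the upstream 250 bases of 3 of them are shown, with the letters TGACGTCA in capitals. They are RefSeq promoters in GRCh38.p14, read 5′ to 3′ on the strand of the gene, for CHGA (chr14:92922900-92923149, plus strand), VGF (chr7:101165570-101165819, minus strand) and SST (chr3:187670395-187670644, minus strand).
CHGA: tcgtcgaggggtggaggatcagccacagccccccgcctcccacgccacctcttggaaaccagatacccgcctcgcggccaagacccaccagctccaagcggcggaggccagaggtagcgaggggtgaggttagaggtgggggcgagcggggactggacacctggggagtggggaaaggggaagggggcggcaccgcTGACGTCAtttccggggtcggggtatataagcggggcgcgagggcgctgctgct
VGF: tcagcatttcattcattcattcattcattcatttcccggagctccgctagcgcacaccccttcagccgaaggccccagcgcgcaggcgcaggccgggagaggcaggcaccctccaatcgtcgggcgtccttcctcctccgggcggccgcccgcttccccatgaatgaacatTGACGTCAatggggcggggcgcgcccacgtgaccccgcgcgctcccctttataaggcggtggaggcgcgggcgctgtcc
SST: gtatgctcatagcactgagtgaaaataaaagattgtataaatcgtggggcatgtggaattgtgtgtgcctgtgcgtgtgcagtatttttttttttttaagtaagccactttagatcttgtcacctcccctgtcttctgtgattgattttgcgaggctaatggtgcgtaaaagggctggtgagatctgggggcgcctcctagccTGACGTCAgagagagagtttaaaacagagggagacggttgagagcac
The element, which reads the same on both strands, begins 54 bases before the start of CHGA, 79 before VGF and 47 before SST. In windows from 250 bases before to 50 after the start, it was found in 5 of 17 granule genes with a window (29.4%), in 1.98% of all 27305 promoters, in 3.2% of those of tested genes, in 2.42% of those of genes large in IMR-32 and in 2.79% of those large in SHEP. The 5 genes were CHGA and VGF, both high in IMR-32, and PCSK1, SLC18A2 and SST, which had almost no counts in either line. A match is a description of the letters and not a binding site.

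Genes of the neuronal cytoskeleton and axon were large in IMR-32 in 21 of 28 cases and in SHEP in none, and 17 had passed only through IMR-32. The median log2 difference was 6.94. CRMP1, a collapsin response mediator of axon guidance, was at 342, 339 and 329 CPM in IMR-32 and 0 CPM in all 3 SHEP libraries, at least 1517-fold higher. ELAVL4, a neuronal RNA-binding protein, was at 139.9, 164 and 139 CPM in IMR-32 and 0 CPM in all 3 SHEP libraries, at least 666-fold higher. Its relative ELAVL3 was at 311, 291 and 262 CPM in IMR-32 and 0.133, 0 and 0 CPM in SHEP (ratio of counts 5874, 95% interval 1626 to 48505), whereas ELAVL2 was within 2-fold, at 37.3 ± 0.706 against 25.3 ± 3.57 CPM (log2 difference 0.56). The axonal adhesion molecule CNTN1 was at 344 ± 21.04 against 0.34 ± 0.0522 CPM (log2 difference 9.94). DCX, INA, NEFH, NCAM1 and L1CAM had no count in SHEP, and their mean levels in IMR-32 were 111 ± 1.63, 112 ± 2.37, 63.2 ± 5.75, 63.6 ± 2.33 and 112 ± 9 CPM (SD, n = 3).

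Several genes often read as neuronal differed by less than 4-fold. UCHL1, the neuronal deubiquitinase also called PGP9.5, was at 644, 654 and 642 CPM in IMR-32 and 609.8, 593 and 672 CPM in SHEP and was not called (log2 difference 0.05, SE 0.06, adjusted p = 0.41). TUBB3, the neuronal beta-tubulin, was at 358 ± 4.94 against 184 ± 12.8 CPM (log2 difference 0.96), under 2-fold. STMN1 and DPYSL3 were higher in SHEP by less than 2-fold, with log2 differences of -0.53 and -0.88. MAP1B was high in both lines, at 1066, 1115 and 1060.5 CPM in IMR-32 and 314, 299.8 and 284 CPM in SHEP (log2 difference 1.85, SE 0.06, adjusted p = 6.9e-25).

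Of 27 synaptic vesicle genes, all tested, 21 were large in IMR-32 and none in SHEP, 12 had passed only through IMR-32, and the median log2 difference was 4.51. SYT1, the calcium sensor of vesicle release, was at 615, 599 and 608 CPM in IMR-32 and 7, 4.97 and 3.66 CPM in SHEP (log2 difference 6.84, SE 0.11, adjusted p = 6.9e-30). SYT11 was at 582 ± 19.8 against 29.1 ± 2.83 CPM (log2 difference 4.32), and the vesicle protein SV2A at 175 ± 7.41 against 7.95 ± 1.76 CPM (log2 difference 4.45). CPLX2 and UNC13A, which act in vesicle priming and fusion, were at 271 ± 6.6 and 256 ± 16.8 CPM in IMR-32 (SD, n = 3) with 2 and 3 counts in all in SHEP.

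Voltage-gated channel genes were large in IMR-32 in 21 of 29 cases and in SHEP in 1, and 16 of the 24 tested had passed only through IMR-32 (median log2 difference 6.23). The pore subunits of N-type and T-type calcium channels, CACNA1B and CACNA1H, were at 310.4 ± 12.4 and 241 ± 8.79 CPM in IMR-32 (SD, n = 3), with 2 counts of CACNA1H in all in SHEP. CACNA1B was at 324, 300.1 and 307 CPM in IMR-32 and 0.133, 0 and 0.153 CPM in SHEP (log2 difference 11.53, SE 0.17, adjusted p = 8.5e-34). KCNH2, the potassium channel hERG, was at 127, 107 and 108 CPM in IMR-32 and 0 CPM in all 3 SHEP libraries, at least 515-fold higher. The sodium channels split: SCN8A was at 81.4 ± 5.95 against 5.86 ± 0.826 CPM (log2 difference 3.80), while SCN2A was the channel with a large difference towards SHEP, at 0.518, 1.05 and 0.921 CPM in IMR-32 and 10.01, 8.36 and 8.85 CPM in SHEP (log2 difference -3.44, SE 0.29, adjusted p = 1e-12).

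Of 25 neurotransmitter receptor genes, 20 were large in IMR-32 and 1 in SHEP, and 18 of the 23 tested had passed only through IMR-32 (median log2 difference 5.85). The ganglionic nicotinic acetylcholine receptor, through which sympathetic neurons are excited, is built from CHRNA3 with CHRNB4 or CHRNB2. All 3 were high in IMR-32 and at 0 or nearly 0 in SHEP. CHRNA3 was at 549, 537 and 544 CPM in IMR-32 and 0.133, 0 and 0 CPM in SHEP (ratio of counts 11079.8, 95% interval 3067 to 91493). CHRNB2 was at 321, 318 and 346 CPM in IMR-32 and 0.133, 0 and 0 CPM in SHEP (ratio 6696, 95% interval 1853 to 55292). CHRNB4 was at 76.2, 65.5 and 77.9 CPM in IMR-32 and 0 CPM in all 3 SHEP libraries, at least 329.8-fold higher. CHRNA5 was also present in SHEP, at 63.4 ± 1.34 against 25.3 ± 0.696 CPM (log2 difference 1.32), and the muscle subunit CHRNB1 was not called, at 9.67 ± 1.61 against 8.42 ± 0.771 CPM (log2 difference 0.20, adjusted p = 0.29).

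Growth factor receptors were divided between the lines, with 16 of 30 large in IMR-32 and 5 in SHEP, a median log2 difference of 2.94, and 9 and 3 members that had passed only through IMR-32 or SHEP. GFRA2, a co-receptor of the GDNF family, was at 521, 467 and 487 CPM in IMR-32 and 0.0667, 0 and 0 CPM in SHEP (ratio of counts 20058, 95% interval 3599.8 to 792275), whereas RET, its signalling partner, was low even in IMR-32, at 3.06, 2.71 and 4.05 CPM in IMR-32 and 0.0667, 0 and 0 CPM in SHEP (ratio 134, 95% interval 23.8 to 5312). ALK, a receptor kinase mutated in part of neuroblastomas, was at 37.96, 31.9 and 36.9 CPM in IMR-32 and 0 CPM in all 3 SHEP libraries, at least 160.4-fold higher. FGFR4 was at 85.7 ± 3.37 against 1.59 ± 0.0144 CPM (log2 difference 5.74). PDGFRA, often used as a mesenchymal receptor marker, was higher in IMR-32, at 106, 105 and 118 CPM in IMR-32 and 1.07, 0.788 and 1.07 CPM in SHEP (log2 difference 6.79, SE 0.15, adjusted p = 4.8e-29), as was PDGFRB, at 47.7 ± 0.249 against 11.4 ± 0.875 CPM (log2 difference 2.06).

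The receptors that were large in SHEP were AXL, MET, EPHA2, EPHA3 and ERBB2. AXL, the receptor of GAS6, had no count in IMR-32 and 652, 647 and 631 CPM in SHEP, at least 4571-fold lower in IMR-32. MET, the receptor of hepatocyte growth factor, was at 0.141, 0.0951 and 0 CPM in IMR-32 and 180.3, 148 and 155 CPM in SHEP (log2 difference -10.88, SE 0.20, adjusted p = 3.9e-31). The ephrin receptor EPHA2 was at 26.7 ± 2.56 against 210.1 ± 6.61 CPM (log2 difference -2.98) and EPHA3 at 1.22 ± 0.0748 against 28.3 ± 3.24 CPM (log2 difference -4.53). EGFR was higher in SHEP by less than 2-fold, at 27.8 ± 1.8 against 54.7 ± 6.29 CPM (log2 difference -0.98). ERBB2 was low in SHEP too, at 2, 1.26 and 1.68 CPM.

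Of 39 mesenchymal transcription factors, 34 were tested, 8 of them only through SHEP, and 18 were large in SHEP and 1 in IMR-32 (median log2 difference -2.65). PRRX1, a homeodomain factor used to define this state, was at 0.0942, 0 and 0.0921 CPM in IMR-32 and 51.03, 57.9 and 47.6 CPM in SHEP (log2 difference -9.55, SE 0.26, adjusted p = 2.2e-26). ID1, an inhibitor of basic helix-loop-helix factors, was at 1.7, 2.66 and 3.13 CPM in IMR-32 and 415, 429 and 444 CPM in SHEP (log2 difference -7.42, SE 0.11, adjusted p = 6.9e-33). ID3 was at 1.9 ± 1.16 against 296 ± 20.97 CPM (log2 difference -7.27). CREB3L1, a membrane-bound factor that activates collagen genes, was at 0.815 ± 0.282 against 121 ± 13.01 CPM (log2 difference -7.21). The ETS factor ETS1 was at 2.4 ± 0.533 against 104 ± 12.3 CPM (log2 difference -5.43). SOX9, a factor of neural crest and cartilage, was at 3 ± 0.667 against 49.02 ± 5.1 CPM (log2 difference -4.03). SNAI2, the repressor Slug, was at 0, 0 and 0.276 CPM in IMR-32 and 12.3, 12.6 and 13.9 CPM in SHEP (log2 difference -7.002, SE 0.42, adjusted p = 2.5e-16). RUNX2 and FOXC2 had no count in IMR-32, with 11.2 ± 3.49 and 6.4 ± 1.35 CPM in SHEP (SD, n = 3). The groups did not overlap for any of these factors.

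Other factors tied to epithelial-mesenchymal transition did not all follow the lines. TWIST2 did, at 0.426 ± 0.232 against 5.52 ± 0.643 CPM with all 15 libraries scaled together. TWIST1 was level, at 89.996, 80.9 and 91.5 CPM in IMR-32 and 87.3, 85.9 and 83.8 CPM in SHEP (log2 difference 0.03, SE 0.08, adjusted p = 0.72). SNAI1 was not called, at 6.11 ± 1.03 against 7.15 ± 1 CPM (log2 difference -0.23, adjusted p = 0.31). ZEB1 was higher in IMR-32, at 59.6 ± 2.26 against 25.4 ± 2 CPM (log2 difference 1.23), while ZEB2 was higher in SHEP, with a log2 difference of -0.76. TCF4, the E-protein also called E2-2, was the listed factor large in IMR-32, at 373, 401 and 390.4 CPM in IMR-32 and 53.2, 47.3 and 39.1 CPM in SHEP (log2 difference 3.06, SE 0.08, adjusted p = 7.3e-26, and 1.94 with a length offset).

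AP-1 is a dimer of FOS and JUN proteins, and the large differences were in FOS-like and MAF subunits. Of 12 genes, 4 were large in SHEP and none in IMR-32 (median log2 difference -0.956). With a length offset 3 were large in SHEP and 1 in IMR-32, and the median was -0.37. FOSL1 was at 0, 0.143 and 0 CPM in IMR-32 and 155, 161 and 150.3 CPM in SHEP (ratio of counts 3315, 95% interval 1134 to 16079). FOSL2 was at 7.67 ± 0.28 against 72.2 ± 6.27 CPM (log2 difference -3.23). The small MAF proteins lack an activation domain of their own: MAFK was at 8.55 ± 0.386 against 53.6 ± 2.84 CPM (log2 difference -2.65) and MAFF at 2.01 ± 0.223 against 8.27 ± 1.16 CPM (log2 difference -2.03). JUN and JUNB were higher in SHEP with log2 differences of -0.96 and -1.43. JUND, ATF3 and BATF3 were higher in IMR-32, with log2 differences of 0.41, 1.41 and 1.35. FOSB was higher there too (1.64), but not without replicate 3 of IMR-32, where it missed the threshold at 1.23. FOS was not called (log2 difference -0.88, SE 0.43, adjusted p = 0.056), and BATF had no counts. The letters TGANTCA of the AP-1 site, on either strand, were in 8.78% of promoters of genes large in SHEP, in 4.56% of those large in IMR-32, in 4.60% of those of all tested genes, and in 7.76% of all promoters.

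YAP1 and WWTR1 are co-activators that bind TEAD factors in spread, tensioned cells, and CCN1, CCN2 and ANKRD1 are their best-known targets. Of 21 genes, all tested, 12 were large in SHEP and 1 in IMR-32, and 6 had passed only through SHEP (median log2 difference -2.86). YAP1 was at 7.58, 7.7 and 8.02 CPM in IMR-32 and 134, 108 and 111 CPM in SHEP (log2 difference -3.92, SE 0.11, adjusted p = 2.1e-26). WWTR1, also called TAZ, was at 0.518, 0.38 and 0.645 CPM in IMR-32 and 56.4, 51.2 and 47.1 CPM in SHEP (log2 difference -6.63, SE 0.19, adjusted p = 5.9e-26). The TEAD factors split: TEAD4 was at 6.99 ± 0.631 against 100.1 ± 1.05 CPM (log2 difference -3.84), TEAD2 was the member large in IMR-32, at 113 ± 3.92 against 18.8 ± 3.75 CPM (log2 difference 2.59), and TEAD1 was within 2-fold, at 114 ± 6.87 against 87.7 ± 15.4 CPM (log2 difference 0.38), a difference that was -0.15 with a length offset. Among targets, the 5 given here were higher in SHEP in every library. CCN1 was at 19.6, 21.4 and 21.3 CPM in IMR-32 and 284, 272 and 283 CPM in SHEP (log2 difference -3.75, SE 0.08, adjusted p = 5.6e-30). CCN2, connective tissue growth factor, was at 0, 0.665 and 0.276 CPM in IMR-32 and 111, 93.7 and 96.9 CPM in SHEP (log2 difference -8.30, SE 0.24, adjusted p = 3.7e-18). ANKRD1 was at 0 CPM in all 3 IMR-32 libraries and 260.04, 250.4 and 232 CPM in SHEP, at least 1759-fold lower in IMR-32. CRIM1, a transmembrane binder of BMPs, was at 0.0614 ± 0.106 against 200.1 ± 22.5 CPM (log2 difference -11.49). NT5E, the ecto-nucleotidase CD73, was at 0.686 ± 0.265 against 297 ± 31.3 CPM (log2 difference -8.74).

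The upstream 250 bases of CCN2 (chr6:131951373-131951622, minus strand) and ANKRD1 (chr10:90921088-90921337, minus strand) are shown because both hold the TEAD letters GGAATG more than once. The letters are in capitals and the build is GRCh38.p14, from RefSeq.
CCN2: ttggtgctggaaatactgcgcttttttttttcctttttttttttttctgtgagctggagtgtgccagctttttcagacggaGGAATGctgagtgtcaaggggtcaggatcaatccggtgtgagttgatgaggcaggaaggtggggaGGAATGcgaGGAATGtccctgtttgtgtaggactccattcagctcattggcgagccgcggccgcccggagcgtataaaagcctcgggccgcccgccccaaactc
ANKRD1: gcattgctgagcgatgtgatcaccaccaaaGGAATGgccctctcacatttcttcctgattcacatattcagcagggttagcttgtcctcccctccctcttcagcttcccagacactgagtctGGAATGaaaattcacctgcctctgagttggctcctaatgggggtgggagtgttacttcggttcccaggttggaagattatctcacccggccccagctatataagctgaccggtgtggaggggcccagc
CCN2 holds 3 copies and ANKRD1 2 copies. On either strand the letters were in 5 of 17 promoters of this list (29.4%), in 14% of all promoters, in 10.9% of those of tested genes, in 13.4% of those large in SHEP and in 10.2% of those large in IMR-32. Other lists differed widely, with 35% for HOX cluster genes, 28.6% for mesenchymal transcription factors, 5.26% for collagen chains and 0% for the Notch pathway. The share is thus not particular to this list.

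Collagens did not move together: of 25 chains in the tables, 10 were large in SHEP and 4 in IMR-32, and 8 of the 20 tested had passed only through SHEP (median log2 difference -0.616). Among those large in SHEP were chains of fibrillar collagens, COL3A1 and COL5A2. COL3A1 was at 0.283, 1.14 and 1.2 CPM in IMR-32 and 390.3, 399 and 413 CPM in SHEP (log2 difference -8.83, SE 0.14, adjusted p = 2.4e-27). COL5A2 was at 1.65 ± 0.449 against 456 ± 22.3 CPM (log2 difference -8.10). COL8A1, a short-chain network collagen, was at 0.281 ± 0.0934 against 85.02 ± 2.98 CPM (log2 difference -8.20). COL6A3, of beaded filaments, was at 0.344 ± 0.196 against 22.5 ± 0.804 CPM (log2 difference -6.004). COL1A2, whose product pairs with that of COL1A1 in collagen I, was at 0, 0.0475 and 0.276 CPM in IMR-32 and 19.5, 24.1 and 27.3 CPM in SHEP (log2 difference -7.66, SE 0.34, adjusted p = 7.6e-20), which was close to 0 in IMR-32 although COL1A1 was present there. The chains large in IMR-32 were COL4A2, COL6A1, COL7A1 and COL16A1. COL4A2, a chain of basement membrane collagen, was at 578 ± 15.1 against 126 ± 12.7 CPM (log2 difference 2.20). COL6A1 was at 456 ± 32.7 against 82.1 ± 4.41 CPM (log2 difference 2.48). COL7A1, of anchoring fibrils, was at 111 ± 20.9 against 12.2 ± 2.34 CPM (log2 difference 3.19). COL16A1 was at 65.2 ± 0.725 against 10.03 ± 0.386 CPM (log2 difference 2.7). The partner chains COL4A1 and COL6A2 were higher in IMR-32 by less than 2-fold, with log2 differences of 0.65 and 0.91.

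Of 45 matrix glycoproteins and remodelling genes, 20 were large in SHEP and 6 in IMR-32, and 12 of the 41 tested had passed only through SHEP (median log2 difference -1.78). TGFBI, a TGF-beta-induced matrix protein, was at 0, 0 and 0.0461 CPM in IMR-32 and 867, 923 and 861 CPM in SHEP (ratio of counts 56442, 95% interval 10129.7 to 2229420.00). TIMP1, an inhibitor of metalloproteinases, was at 0, 0 and 0.0461 CPM in IMR-32 and 260.04, 282 and 285 CPM in SHEP (ratio 17584, 95% interval 3155 to 694578). MMP14, a membrane-bound metalloproteinase, was at 4.39 ± 0.194 against 180.1 ± 6.34 CPM (log2 difference -5.36). EFEMP1, fibulin 3, was at 0.22 ± 0.145 against 141 ± 7.57 CPM (log2 difference -9.29). IGFBP3, which binds insulin-like growth factors, was at 0.0634 ± 0.11 against 102 ± 5.03 CPM (log2 difference -10.52). POSTN and THBS2 had no count in IMR-32, with 84.7 ± 9.18 and 68.9 ± 7.66 CPM in SHEP (SD, n = 3). On the IMR-32 side were fibulins, LOXL1, VCAN, IGFBP5 and FBN2. FBLN1, the matrix protein fibulin 1, was at 651 ± 12.5 against 115 ± 4.77 CPM (log2 difference 2.50). FBLN2 was at 14.5 ± 2.6 against 0.102 ± 0.176 CPM (log2 difference 7.10). LOXL1, a lysyl oxidase relative that crosslinks elastin, was at 168 ± 8.29 against 28.5 ± 3.18 CPM (log2 difference 2.56). VCAN, the proteoglycan versican, was at 199 ± 6.38 against 28.7 ± 6.77 CPM (log2 difference 2.79). IGFBP5, a relative of IGFBP3, was at 91.3 ± 1.71 against 0.419 ± 0.598 CPM (log2 difference 7.83). The fibrillins lay in opposite directions: FBN2 was at 55.997 ± 8.02 against 11.1 ± 1.32 CPM (log2 difference 2.33) and FBN1 at 8.06 ± 0.744 against 134 ± 25.4 CPM (log2 difference -4.06). SPARC was higher in SHEP by less than 4-fold, at 510.1 ± 17.9 against 1647 ± 59.7 CPM (log2 difference -1.69).

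Integrins link matrix to actin, and of 28 integrin and focal adhesion genes 8 were large in SHEP and 5 in IMR-32 (median log2 difference -0.542). These shares, 28.6% and 17.9%, stood beside 16.4% and 24.8% over all tested genes. ITGA5, the fibronectin receptor alpha chain, had no count in IMR-32 and 134, 146 and 126 CPM in SHEP, at least 962-fold lower in IMR-32. ITGA3, a laminin receptor chain, was at 44.9 ± 3.28 against 722 ± 19.7 CPM (log2 difference -4.01). ITGB5 was at 3.81 ± 1.05 against 114 ± 8.47 CPM (log2 difference -4.90). CD44, the hyaluronan receptor, was at 8.1, 7.23 and 10.5 CPM in IMR-32 and 534, 503 and 487 CPM in SHEP (log2 difference -5.88, SE 0.09, adjusted p = 8.6e-32). In IMR-32 the large ones were ITGA1, at 110.1 ± 3.74 against 14.3 ± 1.98 CPM (log2 difference 2.94), ITGA7 and ITGA11, with log2 differences of 3.55 and 3.92, and ITGA9 and PARVA, each with 2 counts in all in SHEP. PARVA, the adaptor alpha-parvin, was at 21.4, 20.1 and 20.2 CPM in IMR-32 and 0.133, 0 and 0 CPM in SHEP (ratio of counts 419.7, 95% interval 116 to 3469.5). The common beta chain ITGB1 was within 2-fold, at 367 ± 16.7 against 442 ± 42.1 CPM (log2 difference -0.27), and was not called (-0.06) with scaling factors from genes at 10 CPM or more in all 6 libraries.

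Actin and contractile genes were large in SHEP in 22 of 29 cases, and 6 of the 28 tested had passed only through SHEP (median log2 difference -3.16). The exception was MYH10, non-muscle myosin IIB, which was large in IMR-32, at 381, 355 and 369 CPM in IMR-32 and 80.9, 89.3 and 78.7 CPM in SHEP (log2 difference 2.15, SE 0.07, adjusted p = 8.8e-25, and 1.78 with a length offset), while MYH9, non-muscle myosin IIA, was at 180.02 ± 7.17 against 1381 ± 108 CPM (log2 difference -2.94). VIM, the intermediate filament protein vimentin, was at 233, 243 and 230.3 CPM in IMR-32 and 4318, 4565 and 4362 CPM in SHEP (log2 difference -4.23, SE 0.06, adjusted p = 1.7e-34). LGALS1, galectin 1, was at 0.932 ± 0.551 against 1081 ± 89.3 CPM (log2 difference -10.16). TAGLN2 was at 67.1 ± 6.06 against 1438 ± 76.9 CPM (log2 difference -4.42), and tropomyosin TPM1 at 70.7 ± 1.61 against 1143 ± 1.05 CPM (log2 difference -4.01). S100A10 and S100A11, small calcium-binding proteins that partner annexins, had no count in IMR-32, with 435 ± 18.1 and 280.1 ± 8.67 CPM in SHEP (SD, n = 3). ANXA1 was at 0, 0 and 0.0921 CPM in IMR-32 and 615, 620.4 and 611 CPM in SHEP (ratio of counts 19688, 95% interval 5449.7 to 162581). ANXA2 was at 156 ± 11.99 against 1696 ± 49.4 CPM (log2 difference -3.44). CALD1 was not called, at 138 ± 10.3 against 133 ± 5.73 CPM (log2 difference 0.05, adjusted p = 0.48).

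Caveolae are flask-shaped pits of the plasma membrane, and most of the coat genes detected were higher in SHEP. Of 10 genes, 5 were large in SHEP: CAV1, CAV2, CAVIN1, CAVIN2 and EHD2. Of the 8 tested, 4 had passed only through SHEP. CAV2 and CAVIN2 had no count in IMR-32, with 107 ± 15.97 and 75.5 ± 8.8 CPM in SHEP (SD, n = 3). CAVIN1 was at 0.471, 0.285 and 0.369 CPM in IMR-32 and 593, 589 and 589 CPM in SHEP (log2 difference -10.59, SE 0.12, adjusted p = 8.9e-37). EHD2 was at 6.82 ± 0.829 against 145 ± 8.25 CPM (log2 difference -4.41). CAVIN4, a muscle family member, was large in IMR-32, at 26.8, 26.2 and 20.6 CPM in IMR-32 and 1.07, 0.788 and 0.763 CPM in SHEP (log2 difference 4.79, SE 0.22, adjusted p = 6.9e-20). PACSIN3 was higher in SHEP and PACSIN2 in IMR-32, with log2 differences of -1.13 and 0.29, and CAV3 and CAVIN3 were at or under 3 counts in both lines.

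TGF-beta and BMP genes did not favour a line by count, with 4 of 29 large in IMR-32 (13.8%) and 5 in SHEP (17.2%). Over all tested genes the shares were 24.8% and 16.4%, and 28 of the 29 were tested. The median log2 difference was -0.055. The type II receptor TGFBR2 was at 1.04, 0.428 and 0.921 CPM in IMR-32 and 63.2, 58.8 and 56.1 CPM in SHEP (log2 difference -6.21, SE 0.18, adjusted p = 7e-26), while the type I receptor TGFBR1 was higher in IMR-32, at 100.7 ± 4.99 against 35.7 ± 1.31 CPM (log2 difference 1.496). The activin antagonists FSTL3 and FST were large in SHEP, FSTL3 at 8.45 ± 0.223 against 202 ± 17.98 CPM (log2 difference -4.58) and FST at 2.09 ± 0.542 against 18.3 ± 1.94 CPM (log2 difference -3.13). LTBP2 and INHBA were the other members large in SHEP, with log2 differences of -4.45 and -2.41. BMP7 was at 87.8, 78.7 and 80.3 CPM in IMR-32 and 0 CPM in all 3 SHEP libraries, at least 371-fold higher in IMR-32, with ACVR1B, SMAD9 and BMP2 also large there (2.91, 3.17 and 3.13).

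Notch receptors and ligands were exchanged between the lines. Of 27 pathway genes, 15 were large in IMR-32 and 4 in SHEP, and 8 and 3 had passed only through IMR-32 or SHEP (median log2 difference 3.45). NOTCH1 was at 115 ± 5.16 against 10.5 ± 1.48 CPM (log2 difference 3.45). NOTCH3 was at 294, 278 and 314 CPM in IMR-32 and 2.47, 2.44 and 1.53 CPM in SHEP (log2 difference 7.09, SE 0.12, adjusted p = 1.5e-32). NOTCH2 was at 0.565, 0.761 and 0.461 CPM in IMR-32 and 134, 108 and 121 CPM in SHEP (log2 difference -7.65, SE 0.15, adjusted p = 5.6e-30). Among ligands, JAG1 was at 2.73, 2.76 and 2.49 CPM in IMR-32 and 107, 98.2 and 100.03 CPM in SHEP (log2 difference -5.25, SE 0.12, adjusted p = 1.2e-28). JAG2, its relative, was at 167 ± 5.63 against 0.606 ± 0.294 CPM (log2 difference 8.13). DLL3, which acts inside the cell to restrain the pathway, was at 339.7, 302 and 322 CPM in IMR-32 and 1.47, 1.1 and 1.83 CPM in SHEP (log2 difference 7.76, SE 0.12, adjusted p = 2.5e-33). DLL1 was at 26.1 ± 1.09 against 0.103 ± 0.0896 CPM (log2 difference 7.95). The target HES1 was high in SHEP, at 0.283, 0.285 and 0.507 CPM in IMR-32 and 29.02, 39.4 and 36.1 CPM in SHEP (log2 difference -6.57, SE 0.23, adjusted p = 2.6e-23), and HES6, a neuronal relative that opposes HES1, in IMR-32, at 233 ± 4.53 against 20.9 ± 2.91 CPM (log2 difference 3.48). The fringe enzymes differed in kind: MFNG was at 126 ± 9.91 against 0.435 ± 0.513 CPM (log2 difference 8.06), while LFNG was not called (log2 difference -0.20, SE 0.13, adjusted p = 0.13).

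NF-kB and cytokine genes were large in SHEP in 12 of 29 cases and in IMR-32 in 2, and 7 of the 22 tested had passed only through SHEP (median log2 difference -2.20). TNFRSF12A, the receptor of TWEAK, was at 4.62, 5.23 and 4.42 CPM in IMR-32 and 240.5, 242 and 255 CPM in SHEP (log2 difference -5.69, SE 0.09, adjusted p = 2.2e-32). The subunits differed unevenly. NFKB1 was at 10.96 ± 1.01 against 54.5 ± 2.19 CPM (log2 difference -2.31). RELB was at 2.25 ± 0.235 against 17.02 ± 1.82 CPM (log2 difference -2.92), and RELA was not called, at 80.6 ± 1.16 against 77.7 ± 2.56 CPM (log2 difference 0.05, adjusted p = 0.51). Chemokines were low in SHEP too: CXCL1 was at 5.34, 4.89 and 4.12 CPM and CXCL8 at 4.94, 3.94 and 6.26 CPM there. OSMR and LIFR, receptors for related cytokines, lay in opposite directions. OSMR had no count in IMR-32 and 53.5, 47.4 and 37.01 CPM in SHEP, at least 327-fold lower in IMR-32. LIFR was at 192 ± 6.01 against 18.4 ± 3.76 CPM (log2 difference 3.37). TNFRSF10B, a TRAIL receptor, was large in IMR-32, at 368 ± 12.9 against 86.6 ± 2.73 CPM (log2 difference 2.09).

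Interferon-stimulated and MHC class I genes were large in SHEP in 21 of 35 cases and in IMR-32 in 1, and 18 of the 29 tested had passed only through SHEP (median log2 difference -4.90). No count was found for 18 of the genes in IMR-32 and for 1 in SHEP. HLA-C had no count in IMR-32 and 44.96, 27.3 and 53.6 CPM in SHEP, and HLA-E 22.1, 29.4 and 30.3 CPM. The class I heavy chain genes resemble each other and vary between people, so reads may be lost or shared between them in either line. B2M, the invariant light chain, was present in both lines, at 177, 181 and 179 CPM in IMR-32 and 467, 484 and 482 CPM in SHEP (log2 difference -1.42, SE 0.06, adjusted p = 2e-21). Of the antigen-processing genes, TAP1 had no count in IMR-32 and 8.01, 10.9 and 8.55 CPM in SHEP, and PSMB8 10.5, 9.62 and 12.2 CPM. IFITM3, a membrane protein that restricts virus entry, was at 0, 0.0951 and 0 CPM in IMR-32 and 300.1, 351 and 319.8 CPM in SHEP (ratio of counts 10305, 95% interval 2852 to 85100.4). IFI16, a DNA sensor, was at 0.0471, 0 and 0 CPM in IMR-32 and 62.4, 64.2 and 57.1 CPM in SHEP (ratio 3917, 95% interval 702 to 154791). Of the 29 tested, 25 were higher in SHEP and 3 in IMR-32, among the latter the transcription factors STAT2 and IRF9. STAT2 was at 90.5 ± 8.52 against 24.05 ± 1.12 CPM (log2 difference 1.91). IRF9 was at 30.7 ± 1.37 against 12.7 ± 0.842 CPM (log2 difference 1.27). The related factors IRF1 and IRF2 were higher in SHEP. With all 15 libraries scaled together, IRF1 was at 1.45 ± 0.536 against 17.3 ± 1.62 CPM and IRF2 at 4.85 ± 0.363 against 10.5 ± 0.589 CPM.

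Interferon-stimulated promoters are known for the interferon response element, searched here as GAAA, any 2 bases and GAAA on both strands. The upstream 250 bases of IFIT1 (chr10:89392373-89392622, plus strand), ISG15 (chr1:1013247-1013496, plus strand) and IFI27 (chr14:94110486-94110735, plus strand) show it in capitals (RefSeq, GRCh38.p14). IFI27 is included as the listed gene with a large difference towards IMR-32.
IFIT1: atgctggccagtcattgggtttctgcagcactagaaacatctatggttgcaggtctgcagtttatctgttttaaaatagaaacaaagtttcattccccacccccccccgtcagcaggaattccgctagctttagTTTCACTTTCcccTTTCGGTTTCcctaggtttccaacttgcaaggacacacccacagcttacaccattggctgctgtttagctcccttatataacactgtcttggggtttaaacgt
ISG15: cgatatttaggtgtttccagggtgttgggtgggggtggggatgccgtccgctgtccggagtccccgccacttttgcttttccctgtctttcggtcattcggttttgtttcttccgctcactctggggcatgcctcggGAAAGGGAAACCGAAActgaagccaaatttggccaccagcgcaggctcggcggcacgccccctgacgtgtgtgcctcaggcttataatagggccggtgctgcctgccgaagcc
IFI27: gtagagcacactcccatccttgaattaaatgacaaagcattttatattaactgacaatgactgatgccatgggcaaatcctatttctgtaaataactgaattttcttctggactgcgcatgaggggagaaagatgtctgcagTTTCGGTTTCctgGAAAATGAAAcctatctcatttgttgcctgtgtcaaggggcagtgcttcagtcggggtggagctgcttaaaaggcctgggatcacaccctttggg
The letters were in 17 of 26 promoters of the list (65.4%), in 3.65% of all promoters, in 2.57% of those of tested genes, in 4.59% of those large in SHEP and in 1.95% of those large in IMR-32. IFIT1 had no count in IMR-32 and 10.2, 10.7 and 9.46 CPM in SHEP, at least 71.999-fold lower in IMR-32. ISG15 was at 0.283, 1.71 and 0.783 CPM in IMR-32 and 15.7, 21.6 and 20.4 CPM in SHEP (log2 difference -4.37, SE 0.30, adjusted p = 2.8e-12). IFI27, with the same letters, was higher in IMR-32, at 7.54, 4.56 and 4.7 CPM in IMR-32 and 0.133, 0.394 and 0 CPM in SHEP (log2 difference 4.97, SE 0.49, adjusted p = 4.9e-11), and IFI6 was not called (log2 difference -0.03, SE 0.12, adjusted p = 0.84).

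HOX genes record the position of a cell along the body axis, and the HOXB cluster divided the lines. Of 10 HOXB genes in the tables, 9 had no count in any IMR-32 library, and the tenth, HOXB3, had 2 counts in all. In SHEP, HOXB2 was at 94.1, 90.8 and 97.6 CPM, HOXB4 at 46.1, 43.99 and 49.2 CPM, HOXB7 at 25.95, 28.5 and 28.2 CPM and HOXB9 at 19.8, 17.3 and 20.1 CPM. HOXB2 was at least 669-fold lower in IMR-32. All 7 tested HOXB genes were large in SHEP, as were the 3 tested HOXA genes (HOXA2, HOXA3 and HOXA5), which summed to 13.8 to 16.5 CPM over the cluster in SHEP and 0.369 to 0.471 in IMR-32. Genes of these clusters were too low in IMR-32 to pass the filter on low counts there, so those tested had passed only through SHEP. In all, 10 of the 24 tested HOX genes had passed only through SHEP and 2 only through IMR-32.

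The HOXC and HOXD clusters were used in both lines. HOXD genes summed to 80.6 to 84.4 CPM in IMR-32 and 74.1 to 76.2 in SHEP, but with different members. HOXD13 and HOXD3, from opposite ends of the cluster, were higher in IMR-32. HOXD13 was at 17.001, 15.7 and 18.6 CPM in IMR-32 and 2, 2.29 and 1.98 CPM in SHEP (log2 difference 3.03, SE 0.20, adjusted p = 1.2e-15). HOXD3 was at 21.5 ± 2.02 against 3.77 ± 0.592 CPM (log2 difference 2.51). HOXD11 was higher in SHEP. HOXD11 was at 2.87, 3.09 and 2.26 CPM in IMR-32 and 13.9, 12.9 and 12.4 CPM in SHEP (log2 difference -2.25, SE 0.21, adjusted p = 5.4e-12). HOXD9, between them, was not called, at 17.4 ± 1.29 against 14.6 ± 1.8 CPM (log2 difference 0.26, adjusted p = 0.089). HOXC genes summed to 31.6 to 34.4 CPM in IMR-32 and 43.0 to 49.98 in SHEP, and HOXC10 was the HOXC member with a large difference, at 1.41 ± 0.0672 against 0.205 ± 0.233 CPM (log2 difference 2.79). With a length offset 5 HOX genes in place of 3 were large in IMR-32, and 10 in place of 11 in SHEP.

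**Figure D4:**
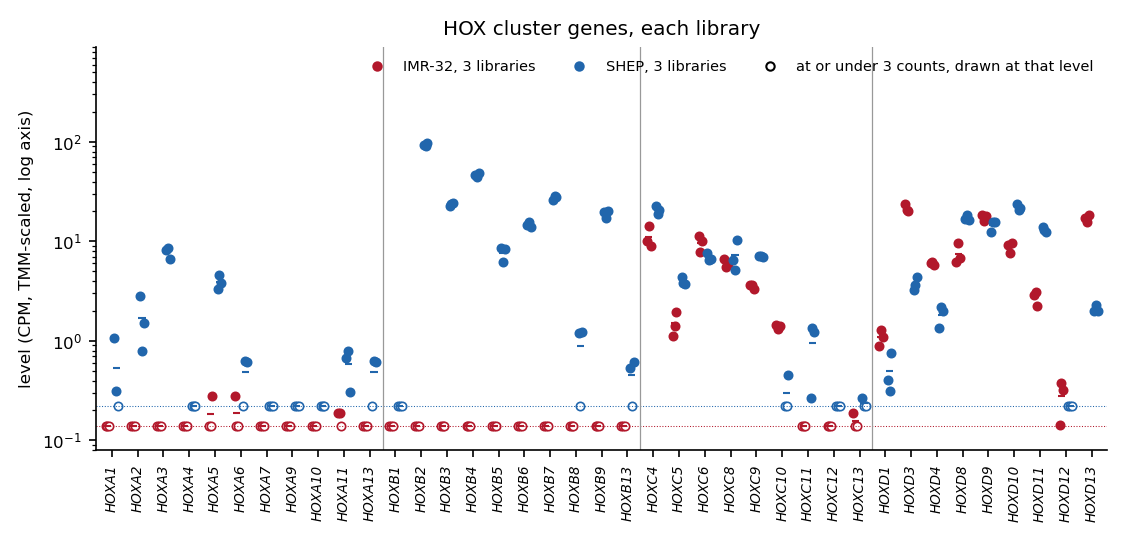
Level of each HOX gene in each library (CPM, log axis) for the HOXA, HOXB, HOXC and HOXD clusters from left to right, IMR-32 in red and SHEP in blue, with a short bar at each mean. Open points lie at or under 3 counts and are drawn at that level: every IMR-32 point in HOXB is open, while HOXC and HOXD hold filled points of both lines.

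The MYC family was exchanged. MYC was at 0, 0 and 0.184 CPM in IMR-32 and 12.5, 13.3 and 10.6 CPM in SHEP (log2 difference -7.45, SE 0.44, adjusted p = 5.7e-17), MYCN as given above, and MYCL at 6.96 ± 2.57 against 0.452 ± 0.182 CPM (log2 difference 3.95). The dimer partner MAX was close in both lines, at 46.04 ± 4.06 against 68.4 ± 2.87 CPM (log2 difference -0.57). The antagonists MXD4, MXI1 and MNT, which compete with MYC proteins for MAX, were large in IMR-32. MXD4 was at 173 ± 4.82 against 18.2 ± 3.03 CPM (log2 difference 3.26). MXI1 was at 26.7 ± 1.18 against 3.8 ± 1.47 CPM (log2 difference 2.82). MNT was at 72.6 ± 2.03 against 11.6 ± 0.739 CPM (log2 difference 2.64). MLXIPL, the glucose-responsive factor ChREBP, had no count in SHEP and 10.6, 11.2 and 10.8 CPM in IMR-32. MLXIP, MLX and MXD3 were higher in IMR-32, with log2 differences of 1.29, 1.19 and 0.57. MXD1 was not called (log2 difference 0.12, SE 0.13, adjusted p = 0.39), nor was MGA (log2 difference -0.06, SE 0.16, adjusted p = 0.73). In all, 6 of 13 genes were large in IMR-32 and 1 in SHEP, and 3 and 1 had passed only through IMR-32 or SHEP.

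Genes next to MYCN on the short arm of chromosome 2 were higher with it. DDX1, an RNA helicase gene often co-amplified with MYCN, was at 5785, 6117 and 5860.1 CPM in IMR-32 and 250.04, 251 and 250.1 CPM in SHEP (log2 difference 4.56, SE 0.06, adjusted p = 2.1e-35). NBAS, a vesicle-tethering gene, was at 2503, 2483 and 2535 CPM in IMR-32 and 37.8, 37.4 and 31.1 CPM in SHEP (log2 difference 6.14, SE 0.07, adjusted p = 9.2e-36). LRATD1 was at 1386, 1436 and 1410.00 CPM in IMR-32 and 0.6, 0 and 0 CPM in SHEP (log2 difference 12.60, SE 0.19, adjusted p = 1.1e-21), and the antisense gene MYCNOS at 11.1, 12.2 and 8.43 CPM in IMR-32 and 0.133, 0 and 0 CPM in SHEP (ratio of counts 215, 95% interval 59.2 to 1777). MYCNOS lies opposite to MYCN, and the SHEP reads were counted by strand per the file header, while the setting for IMR-32 is not given in the sources used here. Among genes at 10 CPM or more in either line and within 2 Mb of MYCN (MYCN itself aside), 5 of 7 were large in IMR-32 and none in SHEP, with a median log2 difference of 6.14. From 2 to 5 Mb, 2 of 14 were large in IMR-32 and 2 in SHEP, with a median of 0.321, and from 5 to 10 Mb 4 and 4 of 31, with a median of -0.210. From 10 to 15 Mb, 15 of 60 were large in IMR-32 and 6 in SHEP, with a median of 0.149. On the other side of MYCN, the nearest genes at this level were within 2-fold. SMC6 was at 63.04 ± 8.56 against 88.7 ± 4.67 CPM (log2 difference -0.49). GEN1 was at 55.7 ± 3.96 against 35.2 ± 3.01 CPM (log2 difference 0.66). Farther towards the telomere GREB1 was again high, at 94.2, 83.1 and 95.5 CPM in IMR-32 and 1.6, 0.946 and 1.22 CPM in SHEP (log2 difference 6.15, SE 0.15, adjusted p = 1.6e-27), and TRIB2, between GREB1 and MYCN, was large too (log2 difference 2.62). Around GREB1, LPIN1 had a log2 difference of 1.51, ROCK2 of -0.72, and E2F6 of 0.08, which was not called. Copy number was not analysed here.

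**Figure D5:**
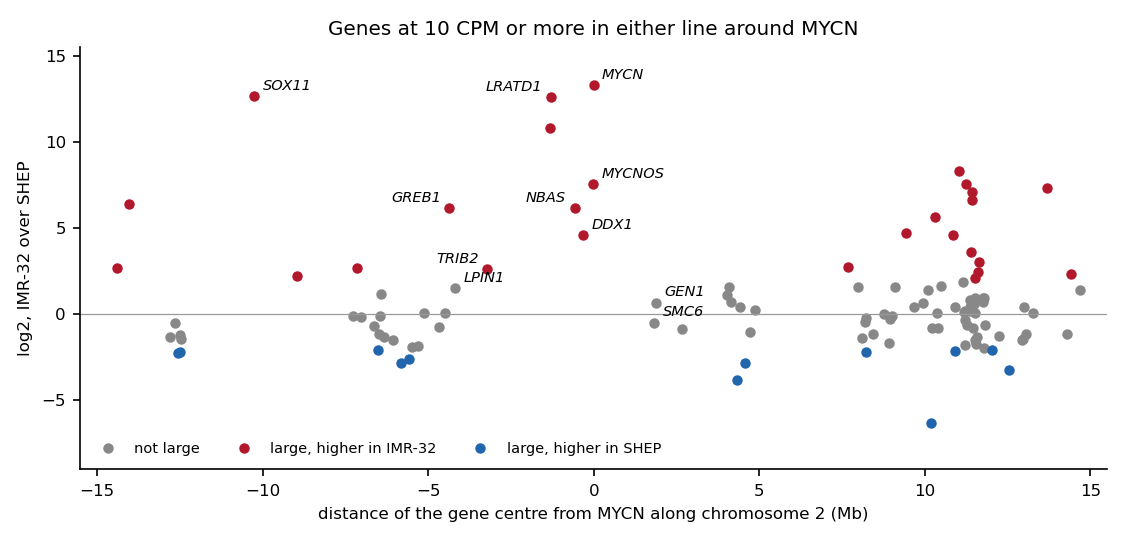
Log2 difference (IMR-32 over SHEP) of genes at 10 CPM or more in either line, by distance in Mb from MYCN on chromosome 2, with genes at 0 counts in a line set to 3 counts. Red and blue points are large differences: within 2 Mb they are MYCN, MYCNOS, DDX1, NBAS, LRATD1 and a gene without a symbol, while SMC6 and GEN1 lie near 0.

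Subunits of the RNA exosome, the nuclease complex the series is about, were mostly higher in SHEP, and most by less than 4-fold. Of 22 subunits and cofactors, 17 were higher in SHEP and 5 in IMR-32 (median log2 difference -0.676), and 5 were large, all in SHEP: EXOSC3, EXOSC4, EXOSC6, C1D and RBM7. Over all tested genes 41.4% were higher in SHEP and 46.5% in IMR-32. The share large in SHEP, 22.7%, was near the 16.4% over all tested genes. EXOSC3 was at 19.1, 20.01 and 18.2 CPM in IMR-32 and 88.1, 89.3 and 90.6 CPM in SHEP (log2 difference -2.23, SE 0.09, adjusted p = 2.4e-21). EXOSC6 was at 11.04 ± 1.09 against 61.7 ± 12.2 CPM (log2 difference -2.48). With a length offset 1 was large. EXOSC10, the nuclear catalytic subunit and the target of the hairpin induced in other IMR-32 libraries, was at 72.3, 62.03 and 64.96 CPM in IMR-32 and 96.999, 88.4 and 73.7 CPM in SHEP (log2 difference -0.38, SE 0.09, adjusted p = 0.00026). With scaling factors from genes at 10 CPM or more in all 6 libraries its difference was -0.17 and was not called. DIS3, the other catalytic subunit, was at 56.01 ± 4.51 against 114 ± 8.9 CPM (log2 difference -1.02). The cofactors ZCCHC8, ZFC3H1 and PABPN1, of the complexes that deliver nuclear RNA to it, were higher in IMR-32, with log2 differences of 1.06, 0.98 and 0.81.

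Proteasome subunits were higher in SHEP in 29 of 30 cases, with 6 large, and the remaining subunit, PSMD4, was not called (log2 difference 0.05, SE 0.07, adjusted p = 0.48). Their differences fell in a narrow range, from -2.7 for PSMD7 to -0.52 for PSMD3 among those called, with a median of -1.66 against 0.107 over all genes with a mean of 1 CPM or more. PSMA3 was at 39.6, 42.2 and 41.9 CPM in IMR-32 and 218, 229 and 236 CPM in SHEP (log2 difference -2.46, SE 0.07, adjusted p = 1.8e-25). With a length offset the median was -1.19 against 0.324 over all genes, and 3 subunits were large. Over all tested genes 41.4% were higher in SHEP and 16.4% large there, and the 6 subunits large without the offset were 20% of 30.

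Cell cycle control genes had 5 of 24 members large in IMR-32 and 3 in SHEP, with 22 tested and 3 of them only through IMR-32. Of the 24, 20.8% and 12.5% were large, against 24.8% and 16.4% over all tested genes and 7.57% and 4.99% over all genes in the tables. The last pair includes many untested genes, while 22 of these 24 were tested. The median log2 difference was -0.197. The list as a whole thus did not favour a line, and the genes below are single members. CDKN2A, which encodes the p16 and p14ARF brakes, was at 33.3, 29.04 and 31.7 CPM in IMR-32 and 0.267, 0 and 0 CPM in SHEP (log2 difference 8.22, SE 0.32, adjusted p = 4.7e-22), and its neighbour CDKN2B had no count in SHEP and 2.45, 2.57 and 2.17 CPM in IMR-32. CCND1 was high in both, at 667 ± 7.75 against 370.3 ± 29.3 CPM (log2 difference 0.85), while CCND3 was large in SHEP, at 18.2 ± 0.46 against 139.97 ± 8.15 CPM (log2 difference -2.94), and CCND2 was at or under 3 counts in both lines. CDKN2C was at 12.8 ± 0.796 against 102 ± 4.78 CPM (log2 difference -2.98). MDM4, an inhibitor of p53, was at 301, 298 and 336 CPM in IMR-32 and 27.8, 28.4 and 32.8 CPM in SHEP (log2 difference 3.40, SE 0.08, adjusted p = 3e-28), and MDM2 was not called (log2 difference -0.02, SE 0.08, adjusted p = 0.79). LIN28B, which blocks let-7 maturation, was at 43.5 ± 0.741 against 6.4 ± 0.627 CPM (log2 difference 2.76).

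Imprinted genes, expressed from 1 parental copy, were large in IMR-32 in 10 of 22 cases (45.5%) and in SHEP in 1 (4.55%). Over all genes in the tables the shares were 7.57% and 4.99%, and over tested genes 24.8% and 16.4%. Of the 16 tested, 8 had passed the filter on low counts only through IMR-32, the line where they are high. The growth-regulating pair H19 and IGF2 had no count in SHEP and 18.8 ± 1.51 and 9.1 ± 1.41 CPM in IMR-32 (SD, n = 3). MEG3, of the imprinted domain on chromosome 14, was at 71.2, 68.5 and 60.8 CPM in IMR-32 and 0 CPM in all 3 SHEP libraries, at least 301-fold higher. DLK1, from the same domain, was at 133, 127 and 129 CPM in IMR-32 and 0, 0 and 0.153 CPM in SHEP (ratio of counts 2646, 95% interval 732 to 21849). NNAT, neuronatin, was at 401, 417 and 411 CPM in IMR-32 and 0.133, 0 and 0 CPM in SHEP (ratio 8355, 95% interval 2313 to 68989.8). KCNQ1OT1, transcribed opposite KCNQ1 in the CDKN1C domain, was at 248 ± 41.3 against 3.37 ± 1.84 CPM (log2 difference 6.16), with the same limit on strand as MYCNOS. CDKN1C had no count in SHEP and 17.8, 19.4 and 18.9 CPM in IMR-32. PHLDA2, from the same domain, was high in SHEP, at 1.52 ± 0.723 against 43.9 ± 1.82 CPM (log2 difference -4.85). GNAS was high in both lines, at 751 ± 4.41 against 1150.5 ± 30.3 CPM (log2 difference -0.61).

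Markers of other cell types were mostly absent. Among leukocyte genes, PTPRC, CD3E, ITGAM and CD52 were at or under 3 counts on average in both lines, CD14 and LYZ were untested, and CD68, LCP1 and CORO1A had log2 differences of -2.52, -1.95 and 1.85. CD68, a lysosomal protein, was at 2.42 ± 0.344 against 13.9 ± 1.35 CPM (log2 difference -2.52), and CORO1A, an actin-binding coronin, at 25.1 ± 1.33 against 6.99 ± 1.63 CPM (log2 difference 1.85). Of 7 endothelial genes VWF, ERG, CLDN5 and EMCN were at or under 3 counts, CDH5 and KDR were untested, and TIE1 was at 0.108 ± 0.148 against 8.14 ± 1.27 CPM (log2 difference -6.12). Of 8 epithelial genes EPCAM was not called, CDH1, KRT5, KRT14 and CLDN4 were at or under 3 counts, and ELF3 was untested. KRT8, the filament partner of KRT18, was high in SHEP, at 0.0614 ± 0.106 against 109 ± 5.92 CPM (log2 difference -10.62). Among Schwann cell and glial genes, SOX10, S100B, GFAP, MBP, FABP7 and EGR2 were at or under 3 counts. FOXD3 was large in IMR-32 (log2 difference 3.16), and ERBB3 was higher there by less than 4-fold (1.95). PMP22 was large in SHEP, at 12.4 ± 0.457 against 162 ± 8.54 CPM (log2 difference -3.71), and CDH19 had no count in IMR-32 and 1.33, 0.788 and 1.83 CPM in SHEP. Of 6 melanocyte genes TYR, TYRP1 and MLANA were at or under 3 counts. DCT was large in SHEP (log2 difference -2.47). MITF was higher there (-0.67), but was not called without replicate 3 of IMR-32 (-0.55) or with factors from genes at 10 CPM or more in all 6 libraries (-0.46). PMEL, a fibril protein of pigment granules, was high in IMR-32, at 117, 112 and 106 CPM in IMR-32 and 1.33, 1.73 and 2.14 CPM in SHEP (log2 difference 6.01, SE 0.14, adjusted p = 1.6e-28).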

How the data were processed

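Poly(A)-selected RNA of IMR-32 and SHEP cells was sequenced, and the authors deposited 1 table of counts per gene for each line, with the same 57905 Ensembl GRCh37.87 gene models. Per the file headers, SHEP read pairs were counted with featureCounts 2.0.3 by reverse strand, with reads on overlapping genes counted for each gene. The IMR-32 setting is not given in the sources used here, and STAR 2.7.10a and hg19 are named in the submitters' processing notes. In the counts, genes lying wholly within the exons of others had counts in 438 (IMR-32) and 428 (SHEP) of 440 cases, and of 691 genes with 90% or more of their exon length opposite another gene 29 and 16 were above 1 CPM.

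IMR-32 columns were assigned by the solvent name and replicate number, and SHEP columns by the absence of doxycycline and replicate number. The tables were joined by gene identifier, and symbols were found for 51996 genes. Genes were filtered with filterByExpr, scaled with TMM and tested in edgeR 4.0.16 (R 4.3.3) with the quasi-likelihood F test, 3 libraries against 3, and Benjamini-Hochberg adjustment over all 17657 genes tested. In counts simulated from these libraries with a small set of genes changed, the script called most of the changed genes, with medians in the right direction. That simulation does not test the scaling when most genes differ, as they do here. For a gene with no count in a line, the fold is a lower bound, with every library set to at least 3 counts. For 1 to 3 counts in a line, the ratio of scaled counts has an exact 95% interval, which covers counting error only. Same-numbered samples did not deviate together (r of -0.019, 0.011 and -0.028), so no pairing was used.

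The members and 31 gene lists (730 genes matched, 16 symbols not matched) were chosen with earlier results of these data known. Named genes are the 6 identity genes, the 15 per line with the largest fold at 50 CPM or more, the large members of each list with the smallest adjusted p, all members of lists with 15 genes or fewer, and further list members named by role. Alternatives were DESeq2 1.42.0, other scalings and filters, all 15 libraries, limits on the fold, overlapping genes left out, a replicate block, each library left out, and a length offset, chosen after seeing the data. Promoter sequences came from RefSeq. Results for some members that these rules would name are not reported here.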

Additional observations from a re-analysis of the deposited data

How the results depend on the processing

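Of 4381 and 2890 large differences (IMR-32 higher, SHEP higher), DESeq2 shared 4375 and 2887, edgeR with RLE factors 4378 and 2890, and a fit of all 15 libraries 4344 and 2877. Scaling factors from genes at 10 CPM or more in all 6 libraries moved the median of all tested genes by 0.206 (log2) and gave 4678 and 2584 large differences, and library totals gave 4481 and 2776. Without a filter on low counts 5713 and 4082 were large. A test against a fold of 2 in place of the 4-fold minimum called 5713 and 4617 and, by its construction, lost genes under 2-fold and moved 12 of 62 list counts by more than 1.5 times. Without genes with overlapping exons, 15628 genes were tested and 3820 and 2676 were large. Leaving out each library gave 4339 to 4870 and 3058 to 3127 large differences, 8034 to 8600 and 7350 to 7439 called genes, and 212 to 218 and 185 to 190 large list members. With replicate number as a block, 7985 and 7115 genes were called and 4408 and 2903 large, although the numbers do not pair the samples. A length offset, chosen after seeing the data, gave 4851 and 2334 large differences, which raised the share in IMR-32 from 60.3% to 67.5%, and moved 10 list counts. Each of the other alternatives moved 0 to 5. Among the 292 named genes that were tested, none with a large difference reversed under these alternatives. Of 4944 values of these genes, 35 in 30 genes lost the call, some of them possibly in the test against a fold of 2. A further 26 values in 14 genes gained the call. Whether each named gene kept a 4-fold difference was not counted. For other list members only the counts per list were compared. TEAD1, within 2-fold, reversed to -0.151 with the length offset. The other reversals were of genes that were not called. With the length offset the values were -0.4 for CALD1, 0.85 for SNAI1, 0.364 for LFNG and 1.048 for IFI6. With library totals they were 0.042 for IFI6, 0.046 for MDM2 and 0.01 for MGA. With factors from genes at 10 CPM or more in all 6 libraries they were 0.181 for IFI6, 0.001 for LFNG, 0.184 for MDM2 and 0.15 for MGA. Leaving out each library, the values ranged from -0.126 to 0.028 for IFI6, -0.1 to 0.048 for MDM2, -0.231 to 0.196 for MGA, -0.011 to 0.13 for PSMD4 and -0.018 to 0.09 for TWIST1. The cause of these shifts was not tested. Depth limits genes near 3 counts per library, whose fold is a bound or an interval.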
